A study of Mus musculus with 12 samples.

Results

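Accessible chromatin of neurons induced to express Hoxc6 was compared directly with that of neurons induced to express Hoxc10. A domain was called line-specific when it was 150 bp or wider and overlapped no domain of the other list by as much as 1 bp. This gave 11101 line-specific domains among the 147413 domains of both lists on chromosomes 1 to 19, X and Y. Of these, 8131 belonged to the iHoxc6 list and 2970 to the iHoxc10 list. The whole series held 482514 domains in 6 lists. Chromatin accessibility was measured by ATAC-seq, in which a transposase cuts open DNA.

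Both groups were mouse embryonic stem cell derivatives, grown as embryoid bodies (EBs) with 1 µM retinoic acid (RA) and the Hedgehog agonist SAG at 0.5 µM for 4 days. Transgene expression was switched on in both with doxycycline (Dox) at 3 µg/mL during the final 48 h. The groups differed in the line, Ainv15(iFlag.Hoxc6) or Ainv15(iFlag.Hoxc10), each with a Flag-tagged Hox transgene placed by cassette exchange behind a Dox-inducible promoter. EBs before patterning and day 2 progenitors of the line Ainv15(iCre), day 4 cells of the Hoxc6 line without Dox, and induced Ainv15(iFlag.Hoxc9) cells served only as reference lists. Each group had 2 samples but 1 list made from both, with coordinates and no read counts, so no value has a replicate error and no test across samples was possible. Shares are given with 95% Wilson intervals, which reflect counting error alone. Per the methods, the day 4 cultures held motor neurons (MNs) and interneurons, and each induced line carries its own transgene. Line and factor cannot be told apart. The cells without Dox share their line with iHoxc6 and not with iHoxc10, and their list was deposited in another layout, so its calling settings may differ. The name of that list gives another day than its sample labels, and the labels were followed, so every value that rests on it carries this doubt.

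Hox transcription factors bind DNA through a homeodomain and give cells their position along the body axis. Hoxc6 belongs to the central group and marks brachial, forelimb-level MNs, whereas Hoxc10 belongs to the posterior group and is active in lumbar, hindlimb-level MNs. Central Hox factors favour sites with the core TAAT. Posterior factors also bind sites with a TTAT core, searched here as TTTAT, and cofactors of the PBX and MEIS families bind beside both groups.

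To show what the classes look like in sequence, the middle 300 bp of 3 distal line-specific domains are printed, from the RefSeq GRCm38.p6 (mm10) genome, plus strand. Capitals mark every TAAT and TTTAT on either strand, so that ATTA and ATAAA are in capitals too. The first pair are the widest domains of each class that lay more than 1 kb from a transcription start site (TSS) and in none of the other 5 lists.
iHoxc6, nearest TSS Ptchd4, chr17:42029265-42029564: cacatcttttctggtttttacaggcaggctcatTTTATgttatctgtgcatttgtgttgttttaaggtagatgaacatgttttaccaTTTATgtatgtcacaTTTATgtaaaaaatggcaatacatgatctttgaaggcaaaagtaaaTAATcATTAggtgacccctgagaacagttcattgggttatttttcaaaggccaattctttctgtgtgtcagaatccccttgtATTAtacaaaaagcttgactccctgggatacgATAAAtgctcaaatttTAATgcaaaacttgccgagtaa
iHoxc10, nearest TSS Sobp, chr10:43103886-43104185: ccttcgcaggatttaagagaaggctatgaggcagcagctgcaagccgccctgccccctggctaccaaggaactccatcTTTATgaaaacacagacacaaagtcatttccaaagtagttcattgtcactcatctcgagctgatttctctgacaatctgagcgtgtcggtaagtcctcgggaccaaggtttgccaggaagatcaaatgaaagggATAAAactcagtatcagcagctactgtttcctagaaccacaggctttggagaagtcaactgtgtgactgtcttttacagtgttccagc
The iHoxc6 example came from an intergenic domain of 606 bp, 286 kb from Ptchd4, and its 300 bp held 4 TAAT and 4 TTTAT matches at 34.3% GC. The iHoxc10 example came from a domain of 869 bp in an intron of Sobp and held 0 TAAT and 2 TTTAT matches at 47.3% GC. The other example is the widest distal domain of the iHoxc6 class that the progenitor and the no Dox lists held as well.
iHoxc6, nearest TSS Def8, chr8:123432347-123432646: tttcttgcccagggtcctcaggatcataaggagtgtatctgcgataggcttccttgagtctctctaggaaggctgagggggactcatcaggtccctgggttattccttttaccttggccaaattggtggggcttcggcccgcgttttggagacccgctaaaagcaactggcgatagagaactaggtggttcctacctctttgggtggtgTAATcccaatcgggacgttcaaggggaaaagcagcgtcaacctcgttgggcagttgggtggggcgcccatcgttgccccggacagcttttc
The domain near Def8 was intronic, 3157 bp wide and in all 4 reference lists, and its middle held 1 TAAT and 0 TTTAT matches at 55.0% GC. These domains differed in core content, so the classes were compared by shares.

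The iHoxc6 list had more domains without a partner in the other list. Of its 41107 domains of 150 bp or more, 8131 were line-specific, which was 19.8% (19.4 to 20.2). Of 33814 such domains in the iHoxc10 list, 2970 were line-specific, which was 8.78% (8.49 to 9.09). The classes covered 2.13 and 0.767 Mb. Line-specific domains were narrow: their median width was 236 bp in iHoxc6 and 230 bp in iHoxc10, against 472 and 446 bp for domains common to both lists. The share was lower at larger widths. Among domains from 200 to below 300 bp, 40.1% (39.1 to 41.2) of iHoxc6 and 19.8% (18.9 to 20.8) of iHoxc10 domains were line-specific, and among those from 500 to below 1000 bp it was 2.60% (2.32 to 2.92) and 1.22% (1.02 to 1.46). None of 4236 iHoxc10 domains of 1000 bp or more lacked an iHoxc6 partner, and 7 of 5037 such iHoxc6 domains lacked an iHoxc10 partner. Just inside the threshold, in the first 5 bp of width, the shares were 37.4% and 14.8%, and in the 5 bp of width just below it, 47.0% and 19.4%.

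**Figure D1:**
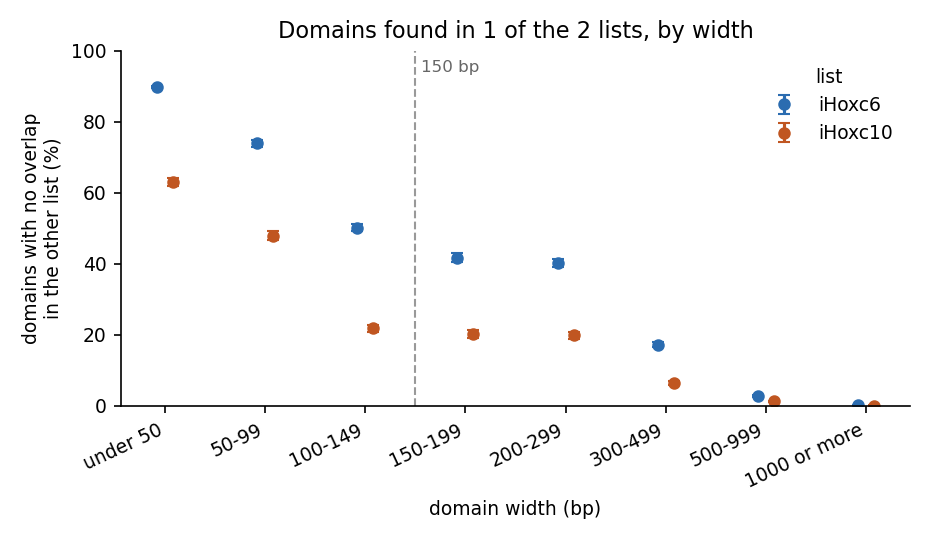
Share of domains without overlap in the other list (percent, y axis) by domain width (bp, x axis) for the iHoxc6 and iHoxc10 lists; bars are 95% Wilson intervals and the dashed line is the 150 bp threshold. In every width class below 1000 bp the iHoxc6 share lay above the iHoxc10 share, for example 73.9% against 47.8% from 50 to below 100 bp and 2.60% against 1.22% from 500 to below 1000 bp.

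The lists were unequal in length, with 91181 domains in iHoxc6 and 56232 in iHoxc10, and this bore on the counts. When both were cut to their 56232 widest domains, iHoxc6-specific domains stayed at 8131 and iHoxc10-specific domains numbered 4221, a ratio of 1.93 in place of 2.74. When both were cut to 33814 domains, the classes were nearly equal, with 8668 (25.6%) in iHoxc6 and 8441 (25.0%) in iHoxc10. The narrowest domain left was then 209 bp wide in iHoxc6 and 150 bp in iHoxc10, so that an iHoxc10 domain whose partner was narrower than 209 bp counted as line-specific. With equal numbers of wide domains in both lists, classes of near equal size are largely set by construction, so this cut does not show what the excess rests on. Under both cuts the shares with TTTAT, TAAT and the E-box word CAGATG, and the shares held by each reference list, kept their direction. The other contrasts below were not recomputed on cut lists, apart from the promoter shares, which also kept their direction, the genes with a promoter domain in 1 list alone and the differences at genes named by count. Beyond the overlap itself, 10.7% of iHoxc6-specific and 19.5% of iHoxc10-specific domains lay within 500 bp of a domain of the other list, and the median gap was 9.96 and 4.64 kb.

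Line-specific domains were mostly distal in both classes. Promoters, taken as 1 kb on either side of the TSS of a protein-coding gene, held 8.19% (7.61 to 8.81) of iHoxc6-specific and 5.89% (5.10 to 6.80) of iHoxc10-specific domains, against 39.6% and 41.6% of the common domains of the same lists. Introns held 40.3% (39.3 to 41.4) and 41.3% (39.6 to 43.1), and intergenic sequence 47.1% (46.02 to 48.2) and 49.3% (47.5 to 51.1), so that these intervals overlapped. The median distance to a TSS was 41.9 kb in the iHoxc6 class and 56.6 kb in the iHoxc10 class, and 31.7% (30.7 to 32.7) and 36.8% (35.1 to 38.6) lay over 100 kb away. The central 150 bp averaged 48.3% GC in iHoxc6-specific and 46.9% in iHoxc10-specific domains, against 56.9% and 57.2% in common domains. Across chromosomes the share of domains that were line-specific ran from 16.4% on chromosome 11 to 22.6% on chromosome 14 among the iHoxc6 autosomes, and from 7.06% on chromosome 7 to 11.1% on chromosome 14 among the iHoxc10 autosomes. On the X chromosome the iHoxc10 share was lower, 4.72% (3.43 to 6.47) of 762 domains, and the iHoxc6 share was 16.5% (14.2 to 19.1) of 908.

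The classes differed most in where else their domains were found. Of iHoxc6-specific domains, 58.2% (57.1 to 59.2) overlapped a domain of day 2 progenitors, collected before induction, compared with 22.5% (20.99 to 24.0) of iHoxc10-specific domains. EBs held 29.1% (28.1 to 30.1) and 13.3% (12.1 to 14.5), and the day 4 cells without Dox 68.6% (67.6 to 69.6) and 38.7% (36.9 to 40.4). The order turned for the list of Hoxc9, which is posterior like Hoxc10: it held 33.8% (32.8 to 34.9) of the iHoxc6 class and 40.4% (38.7 to 42.2) of the iHoxc10 class. Common domains showed no such contrast, with 89.6% and 87.9% in progenitors and 88.3% and 88.5% in iHoxc9. Domains in none of the EB, progenitor and no Dox lists, called new here, made up 1454 (17.9%, 17.1 to 18.7) of the iHoxc6 class and 1527 (51.4%, 49.6 to 53.2) of the iHoxc10 class. In absolute numbers the new domains of both classes were therefore close, although the iHoxc6 class was larger. Of the new domains, iHoxc9 held 19.3% (17.4 to 21.4) in the iHoxc6 class and 37.8% (35.4 to 40.2) in the iHoxc10 class. At the other end, 3837 iHoxc6-specific domains (47.2%, 46.1 to 48.3) and 456 iHoxc10-specific domains (15.4%, 14.1 to 16.7) were held by both the progenitor and the no Dox list.

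**Figure D2:**
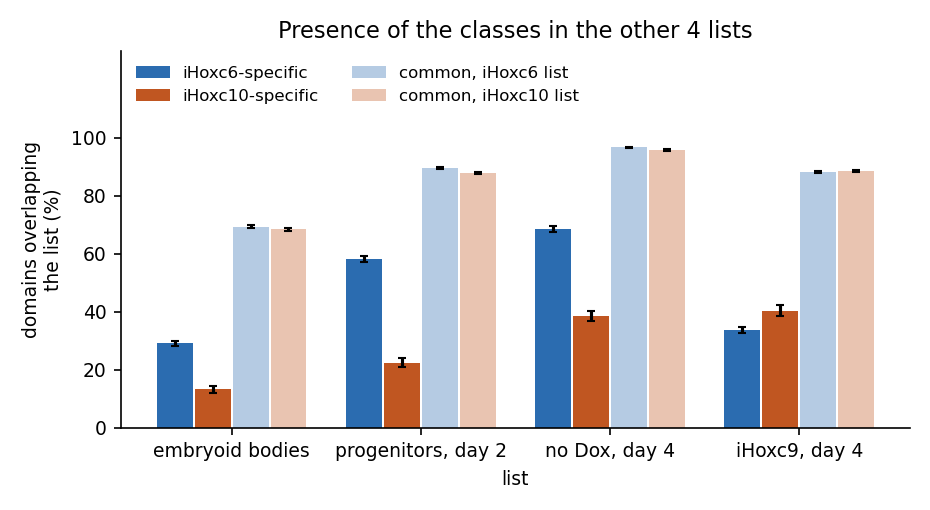
Share of domains (percent, y axis) that overlapped a domain of each reference list (x axis), for the line-specific classes (dark bars) and the common domains (pale bars); error bars are 95% Wilson intervals. iHoxc6-specific domains exceeded iHoxc10-specific domains in EBs, progenitors and no Dox (58.2% against 22.5% in progenitors), and iHoxc10-specific domains exceeded them in iHoxc9 (40.4% against 33.8%).

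The progenitor contrast was also present at equal width. Among line-specific domains from 200 to below 300 bp, 53.8% (52.1 to 55.5) of the iHoxc6 class and 21.2% (19.1 to 23.5) of the iHoxc10 class overlapped a progenitor domain. Among those of 500 bp or more it was 77.9% (72.8 to 82.3) of 290 and 26.3% (19.2 to 34.9) of 118, and 53.1% (47.4 to 58.8) and 78.0% (69.7 to 84.5) overlapped an iHoxc9 domain. The iHoxc9 contrast was not seen in the narrowest domains, from 150 to below 200 bp, with 32.5% (30.8 to 34.3) and 34.1% (31.2 to 37.1). With both lists cut to 33814 domains, the progenitor shares came closer, 69.1% (68.1 to 70.0) and 52.0% (51.0 to 53.1), and iHoxc9 held 49.1% and 59.5%. The EB shares were then nearly equal, at 38.4% and 37.5%. The length of the iHoxc6 list and the line shared by iHoxc6 and the no Dox cells move with these shares, and their part in the difference was not tested.

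Both Hox cores were then counted in the central 150 bp of each domain. TTTAT was present in 47.7% (45.9 to 49.5) of iHoxc10-specific and 30.5% (29.5 to 31.5) of iHoxc6-specific domains, 1.57 times as often. TAAT was present in 65.7% (63.9 to 67.3) and 57.7% (56.6 to 58.8), 1.14 times as often. For comparison, windows of the same length on 41433 TSSs held TTTAT in 17.4% and TAAT in 26.6%, common domains held TTTAT in 22.0% (iHoxc10 list) and 21.3% (iHoxc6 list), and windows 5 kb from the line-specific domains held it in 40.4% and 40.2%. After weighting to the GC content of the iHoxc6 class, 44.3% of the iHoxc10 class held TTTAT and 62.4% held TAAT. The windows 5 kb away then held TTTAT in 29.9% and 29.8%, and common domains in 36.4% (iHoxc10 list) and 34.9% (iHoxc6 list). Both classes were above common domains for TTTAT as counted, but after weighting the iHoxc6 class, at 30.5%, was below them. Windows 5 kb away held TAAT in 59.8% and 59.9% as counted and in 49.3% and 49.0% after weighting. Common domains held TAAT in 58.9% (iHoxc10 list) and 58.3% (iHoxc6 list) after weighting, below the iHoxc10 class but above the iHoxc6 class. For TTTAT, the iHoxc10 class was thus above the windows 5 kb away with and without weighting. The iHoxc6 class was below these windows as counted but close to them after weighting. By GC class, TTTAT was present in 53.9% (51.3 to 56.6) of iHoxc10-specific and 36.8% (35.3 to 38.3) of iHoxc6-specific domains at 40 to 50% GC, and in 27.7% (24.7 to 30.9) and 15.4% (14.01 to 16.9) at 50 to 60% GC, but in 3.45% (1.68 to 6.95) and 3.82% (2.67 to 5.43) at 60% GC or more. Domains with 2 or more TTTAT matches made up 17.5% (16.2 to 18.95) of the iHoxc10 and 7.55% (7.00 to 8.15) of the iHoxc6 class, and those with TAAT and no TTTAT 29.1% (27.5 to 30.7) and 36.2% (35.1 to 37.2).

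New domains carried the cores most often. TTTAT was found in 54.5% (52.0 to 57.0) of new iHoxc10-specific and 37.3% (34.9 to 39.9) of new iHoxc6-specific domains. After GC weighting these shares were 47.9% and 32.5%, closer to the 44.3% and 30.5% of the whole classes. The central core did not separate the new domains, with TAAT in 71.1% (68.8 to 73.3) and 69.9% (67.5 to 72.2). Among domains that the progenitor and no Dox lists already held, TTTAT was found in 33.8% (29.6 to 38.2) of the iHoxc10 class and 26.7% (25.3 to 28.1) of the iHoxc6 class, and TAAT in 55.0% (50.5 to 59.5) and 52.9% (51.3 to 54.5). With both lists cut to 33814 domains, TTTAT was present in 37.4% (36.4 to 38.5) and 31.8% (30.9 to 32.8), and TAAT in 56.6% (55.6 to 57.7) and 55.8% (54.8 to 56.9), so that the TAAT intervals then overlapped. Around domain centres TTTAT peaked within 50 bp in the iHoxc10 class, at 5.31 and 5.23 matches per kb, against 4.25 and 3.96 near 575 bp to either side. In the iHoxc6 class it was 2.90 and 2.85 at the centre and 4.32 and 4.36 near 575 bp. Near 75 bp to either side it was 2.40 and 2.32 in the iHoxc6 class and 3.95 and 3.87 in the iHoxc10 class. TTTAT thus rose locally at the centre in both classes, but in the iHoxc6 class it stayed below its level near 575 bp. TAAT also rose locally at the centre in both classes. On the side of lower coordinates it went from 6.61 near 75 bp to 8.49 in iHoxc6, and from 8.23 to 10.26 in iHoxc10.

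**Figure D3:**
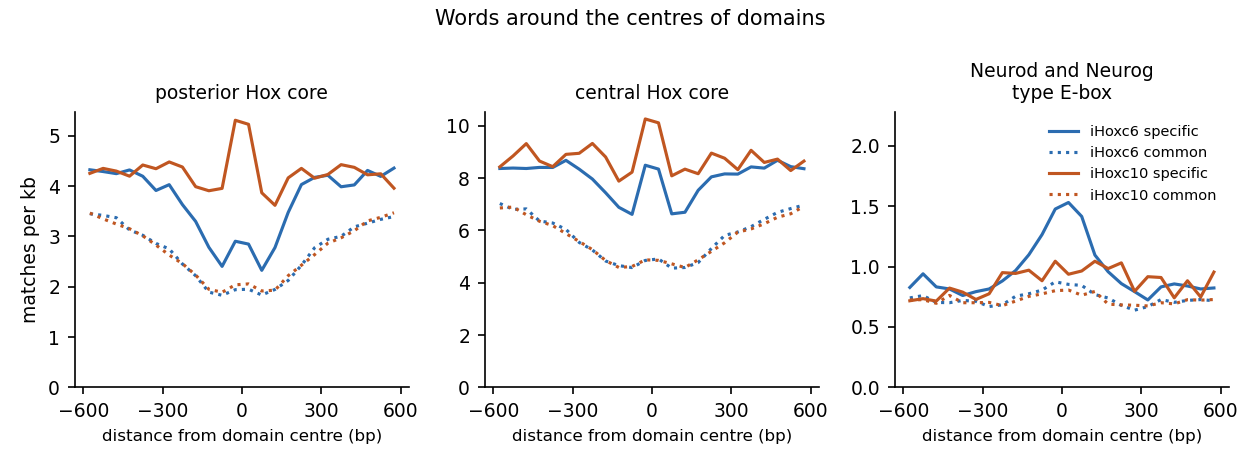
Matches per kb (y axes, from 0) in 50 bp bins by distance from the domain centre (bp, x axes) for the posterior Hox core, the central Hox core and the Neurod and Neurog type E-box; solid lines are line-specific and dotted lines common domains. The posterior core peaked at the centre of iHoxc10-specific domains (5.31 per kb) and the E-box at the centre of iHoxc6-specific domains (1.53 per kb).

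Other words were counted the same way, 20 in all. The words TGATTTAT, CAGATG and TAATTA stand for a PBX and posterior Hox pair, the E-box of the proneural factors Neurod and Neurog, and the LIM homeodomain palindrome. The composite word holds TTTAT, and the palindrome holds TAAT, so their counts are not independent of the cores. The composite was present in 3.401% (2.81 to 4.12) of iHoxc10-specific and 1.30% (1.08 to 1.57) of iHoxc6-specific domains, 2.61 times as often and 2.39 times after GC weighting. It was present in 0.808% and 0.806% of windows 5 kb away and in 0.253% of TSS windows. After GC weighting, common domains held it in 2.26% (iHoxc10 list) and 1.99% (iHoxc6 list). These shares lay below the iHoxc10 class, at 3.12%, but above the iHoxc6 class. The E-box went the other way: it was present in 18.9% (18.1 to 19.8) of the iHoxc6 class and 12.9% (11.7 to 14.1) of the iHoxc10 class, against 11.2% and 11.9% of windows 5 kb away and 6.96% of TSS windows. In new domains these shares were 21.7% (19.6 to 23.9) and 12.4% (10.8 to 14.1). The palindrome was present in 5.41% (4.94 to 5.92) of the iHoxc6 and 6.46% (5.64 to 7.41) of the iHoxc10 class, intervals that overlapped. It was present in 4.69% and 5.15% of windows 5 kb away and in 1.51% of TSS windows. In new domains the order of the palindrome turned, with 8.25% (6.95 to 9.78) and 6.68% (5.53 to 8.04), but these intervals overlapped too.

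Further words were weaker or rarer. The Sox core ACAAT was present in 32.3% of iHoxc6-specific and 28.6% of iHoxc10-specific domains. It was present in 26.1% and 26.5% of windows 5 kb away and in 12.6% of TSS windows. After GC weighting, common domains of both lists held it in 30.1%, above the 26.5% of the iHoxc10 class. The CTCF core was present in 3.68% (3.29 to 4.11) and 2.53% (2.02 to 3.15), and the Sp and Klf box of GC-rich promoters in 6.26% and 4.34%. In new domains the box was present in 2.54% (1.85 to 3.49) and 3.14% (2.38 to 4.14), intervals that overlapped. The nuclear receptor word AGGTCA, found in retinoic acid receptor sites, was present in 12.7% of the iHoxc6 and 17.2% of the iHoxc10 class. Windows 5 kb away held it in 8.74% and 9.26%, and TSS windows in 6.62%. After GC weighting, common domains held it in 12.6% (iHoxc6 list) and 13.6% (iHoxc10 list), and the iHoxc10 class in 17.1%. The Onecut core was rare, at 0.590% and 1.35%. The MEIS core TGACAG was present in 14.3% and 13.5%, and the AP-1 site in 5.51% and 5.39%, both with a ratio near 1. Among all 1273 words of 6 letters (with their reverse complements) held by at least 5% of a class, the highest ratio of iHoxc10 to iHoxc6 after GC weighting was that of CATAAA, in 19.1% against 7.97%, followed by GATTTA, in 14.8% against 6.86%. The first holds the posterior core and the second is part of the composite word. The lowest was that of CAATGG, in 7.04% against 11.4%, followed by ACAATG, which holds the Sox core, in 10.9% against 15.7%. These words were picked by their ratio and the values describe the classes.

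**Figure D4:**
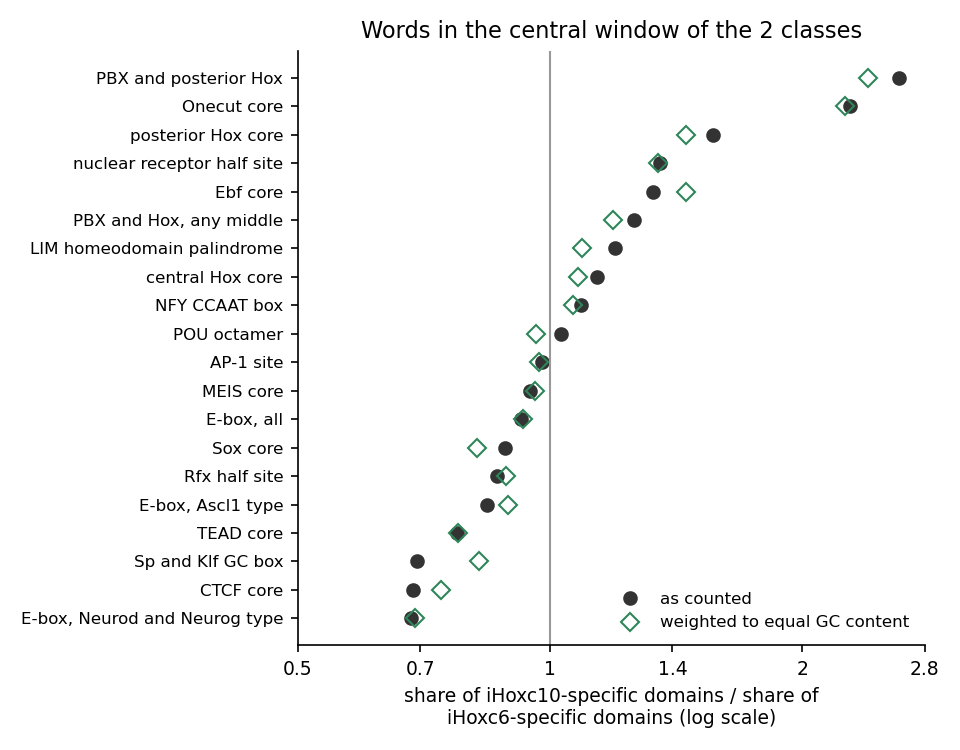
Ratio of the share of iHoxc10-specific to that of iHoxc6-specific domains (x axis, log scale) whose central 150 bp held each of 20 words (y axis, by motif name), as counted (filled circles) and with the iHoxc10 class weighted to the GC content of the iHoxc6 class (open diamonds). The PBX and posterior Hox composite had the highest ratio (2.61) and the Neurod and Neurog type E-box the lowest (0.682); no error bars are drawn because each ratio comes from a single pair of lists.

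In the Hox clusters, the iHoxc6-specific domains were 1 of 21 in HoxA, 1 of 25 in HoxB, 3 of 14 in HoxC and 1 of 22 in HoxD, against 19.8% over all iHoxc6 domains. The iHoxc10-specific domains were 4 of 23, 3 of 29, 3 of 12 and 0 of 19, against 8.78% over all iHoxc10 domains. In HoxC, a pair of the iHoxc6-specific domains, 339 and 242 bp wide, lay on the coding exons of Hoxc6, and an iHoxc10-specific domain of 473 bp lay on the first coding exon of Hoxc10, with 468 bp of it coding. Reads of the transgenes fall on the same exons as those of the native genes, so the source of these 3 domains cannot be told apart. Outside those exons, an iHoxc6-specific domain of 191 bp lay at the promoter of Hoxc13 and was present in all 4 reference lists, and iHoxc10-specific domains of 219 and 233 bp lay in introns of Hoxc6 and Hoxc4. The first of these was likewise in all 4 reference lists, and the second in none. In HoxA, iHoxc10-specific domains of 250, 392, 261 and 169 bp lay within the annotated span of Hoxa3. In HoxB they lay in Hoxb6 (289 bp), in Hoxb3 (197 bp) and at the Hoxb2 promoter (188 bp). The promoters of most Hox genes were in both lists: of the 39 Hox genes, 27 had a promoter domain of any width in both, 2 in iHoxc6 only (Hoxc9, 33 bp, and Hoxd11, 72 bp) and 10 in neither.

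**Figure D5:**
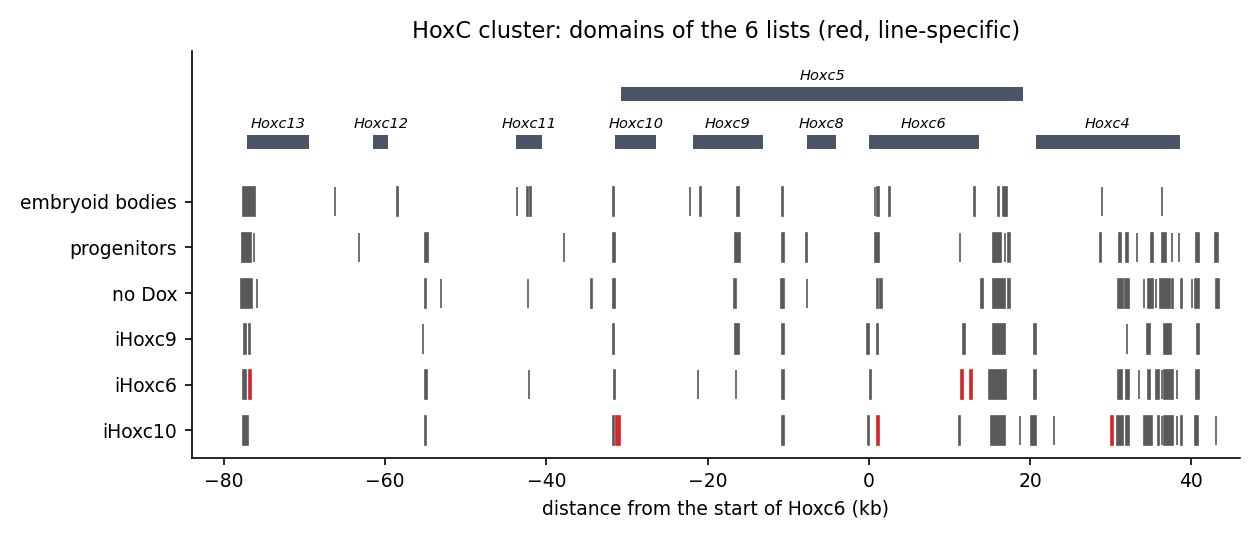
Domains of the 6 lists across the HoxC cluster by distance from the start of Hoxc6 (kb, x axis); grey blocks are domains of any width, red blocks line-specific domains of the iHoxc6 and iHoxc10 lists, and bars at the top genes as annotated by GENCODE. Of the 6 red blocks, 3 overlap coding sequence of Hoxc6 or Hoxc10 in the list of the matching line and 3 lie elsewhere.

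Genes were assigned by the nearest TSS. Of 21827 protein-coding genes, 4839 (22.2%) had 1 or more iHoxc6-specific and 2196 (10.1%) 1 or more iHoxc10-specific domains, 1283 had both, and 16075 had neither. Genes with more iHoxc6-specific than iHoxc10-specific domains numbered 4131, and those with the reverse 1088. Gene lists are described below by the share of their domains that was line-specific, against 19.8% in iHoxc6 and 8.78% in iHoxc10 over all genes, because genes with large surroundings collect more domains of every kind. The share still depends on location. Promoters held 39.6% and 41.6% of common domains but 8.19% and 5.89% of line-specific ones, so a list with more distal domains starts from a higher share. The lists were not set against distal domains alone, and the part of location in their shares was not tested.

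The MN list, 24 genes of MN identity, columns and pools, had 51 line-specific of 222 iHoxc6 domains (23.0%) and 33 of 195 iHoxc10 domains (16.9%). All 24 had promoter domains in both lists, among them Mnx1 (707 bp in iHoxc6 and 871 bp in iHoxc10), Isl1 (817 and 813 bp), Lhx3 (221 and 88 bp) and Slc18a3, the vesicular acetylcholine transporter (811 and 576 bp). These promoters do not mark the cell type, because the EB list held them as well, at 488, 1057, 459 and 1422 bp. Aldh1a2, the RA-synthesising enzyme of limb-level lateral motor column neurons, had 2 iHoxc10-specific and 0 iHoxc6-specific domains. One of them, 601 bp wide at chr9:71217100-71217700 in an intron, 1.31 kb from a TSS, was held by iHoxc9 and by none of the lists without Dox, and its 601 bp held 5 TAAT and 3 TTTAT matches. The other, 233 bp wide and intergenic, was held by the progenitor and no Dox lists, and the promoter domain of Aldh1a2 was 747 bp wide in iHoxc6 and 292 bp in iHoxc10. Foxp1, which sets the lateral motor column programme with Hox factors, had 3 iHoxc6-specific domains, all held by the no Dox list, and 4 iHoxc10-specific domains, none of which it held. The widest of the latter was 532 bp, in an intron, and in none of the other lists. Lhx3, a determinant of MNs and of medial column neurons, had 2 iHoxc10-specific domains and 0 iHoxc6-specific ones, and Mnx1, Chat and Ret had 1 and 0 each. Nr2f1, an orphan nuclear receptor, had 10 iHoxc6-specific and 6 iHoxc10-specific domains, Gfra1, a co-receptor of Ret, 5 and 2, Runx1 3 and 1, Isl1 4 and 1, and the guidance ligand Sema3e 3 and 0.

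The Hox cofactors of the TALE family had 23 line-specific of 104 iHoxc6 domains (22.1%) and 12 of 107 iHoxc10 domains (11.2%), and all 9 had promoter domains in both lists. Meis2 had 8 iHoxc6-specific and 4 iHoxc10-specific domains, Meis1 6 and 4, and Pknox2 3 and 0. At Meis2 the classes came close to each other. An iHoxc6-specific domain of 513 bp and an iHoxc10-specific domain of 448 bp lay in exonic sequence of the gene, and the second was also in iHoxc9 while the first was in no other list. Each held 4 TTTAT matches.

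Among the patterning genes of the ventral neural tube and neurogenesis, 25 in number, 14.8% of 250 iHoxc6 domains and 12.7% of 236 iHoxc10 domains were line-specific. Irx3, a homeodomain factor of intermediate progenitors, stood out with 8 iHoxc10-specific domains against 1. Of the 8, 4 lay in introns of Fto, 140 to 209 kb from the Irx3 TSS, and 4 between genes. The spinal interneuron list had 16 line-specific of 72 iHoxc6 domains (22.2%) and 10 of 62 iHoxc10 domains (16.1%). Pou4f1 had 5 iHoxc6-specific domains and 1 iHoxc10-specific domain, En1 3 and 0, Lmx1b 2 and 3, and Gata3 1 and 3. Axon guidance genes had 88 of 401 (21.9%) and 48 of 344 (13.95%), with Robo2 at 7 and 5, Epha5 at 7 and 4, Robo1 at 7 and 3, and Efna5 at 8 and 1. The type II cadherins, adhesion molecules that sort motor pools, had the highest iHoxc6 share of the lists, 40 of 117 (34.2%), and 17 of 92 (18.5%) in iHoxc10. Cdh11 had 13 iHoxc6-specific and 3 iHoxc10-specific domains, Cdh6 9 and 2, Cdh7 4 and 0, and Cdh8 the reverse, 2 and 5. Of the 13 at Cdh11, 12 were held by the no Dox list and 9 by iHoxc9. The caudal and axial timing list had 3 of 26 (11.5%) and 0 of 22.

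Lists of other cell types were counted alongside. Mesoderm and endoderm genes had 14 of 52 (26.9%) and 4 of 32 (12.5%), of which Foxa2, a factor of endoderm and of the floor plate, gave 9 and 0. Of these 9, 6 were held by the no Dox list and 7 by progenitors. Pluripotency genes had 6 of 24 (25.0%) and 2 of 21 (9.52%), and dorsal neural tube, crest and forebrain genes 10 of 56 (17.9%) and 9 of 45 (20%). The last was the highest iHoxc10 share of the lists, above the 18.5% of the cadherins and the 16.9% of the MN list. Promoter domains were present in both lists at 4 of 8 pluripotency genes (Klf4, Tbx3, Tfcp2l1 and Esrrb), 8 of 12 mesoderm and endoderm genes and 6 of 12 dorsal, crest and forebrain genes. Among the genes of these lists, 4 had a promoter domain in iHoxc6 only, Sox17 (62 bp), Pax3 (56 bp), Six3 (39 bp) and Otx2 (68 bp), and none had one in iHoxc10 only. The defining promoters of Pou5f1, Nanog, Meox1, Sox10 and Barhl1 were at 0 in both lists. The part of other cells in the classes was not tested.

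The genes with the largest differences were then taken by count. In iHoxc6 they were led by Zfp386, a zinc finger gene, with 18 domains against 2, Tiam1, an activator of Rac, with 13 against 0, Pde4d, a cAMP phosphodiesterase, with 13 against 1, and Prl2c3, of the placental prolactin family, with 13 against 2. Olfm4 (11 against 0), Cdh11 (13 against 3), the latrophilin Adgrl2 (12 against 2), Zfp982 (10 against 1), the tensin Tns3 (10 against 1) and Smim15 (9 against 0) followed. Over the whole iHoxc6 class 17.9% of domains were in none of the EB, progenitor and no Dox lists, so presence in one of them was the rule. Such presence was less frequent than in the class at Pde4d (9 of 13 domains), Prl2c3 (8 of 13), Olfm4 (6 of 11) and Smim15 (5 of 9). The no Dox list held 16 of 18 at Zfp386, 11 of 13 at Tiam1 and 8 of 10 at Tns3. Zfp386, Zfp982 and Prl2c3 lie among near-identical relatives, and how reads between such copies were placed is not given in the sources used here. Differences towards iHoxc10 were smaller. After Irx3 came Lingo1, a neuronal membrane protein, with 4 against 0, Lemd2 and Gramd3 with 5 against 1 each, Tnrc6c with 4 against 0, Auts2 with 9 against 6, the zinc finger gene Sall3 with 4 against 1, Gm10295 with 5 against 2, Mvb12b with 3 against 0 and Cdh8 with 5 against 2. When domains of any width were counted, 8 of these 10 genes, Irx3 and Lingo1 excepted, had more iHoxc6-specific than iHoxc10-specific domains, and Irx3 had equal numbers. None of the 5 domains at Cdh8 was in a list without Dox, and iHoxc9 held 3 of them. In 46 genes there were 5 or more iHoxc6-specific and no iHoxc10-specific domains, and in 0 the reverse.

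At promoters the lists were largely alike. Both had a promoter domain of any width at 13357 genes (61.2%), iHoxc6 alone at 861 (3.94%) and iHoxc10 alone at 153 (0.701%). Most of these were narrow: only 31.2% (28.2 to 34.4) of the 861 and 24.8% (18.7 to 32.2) of the 153 had a domain of 150 bp or more. Many were also seen before induction, in EBs for 70.7% (67.6 to 73.7) and 59.5% (51.6 to 66.9). In progenitors it was 65.0% (61.8 to 68.2) and 48.4% (40.6 to 56.2). The widest iHoxc6-specific promoter domains lay at Irak3, a regulator of Toll-like receptor signalling (1090 bp), Galr1, a galanin receptor (973 bp), Arhgap8 (957 bp), the tight junction gene Marveld2 (889 bp), the Nogo receptor relative Rtn4rl2 (865 bp), Lhx6, a LIM homeodomain factor of forebrain interneurons (861 bp), Rgs20 (840 bp) and Vxn (830 bp). All 8 were in the progenitor and no Dox lists. Those of iHoxc10 lay at Epas1, a hypoxia-inducible factor (563 bp), the synaptic scaffold gene Shank1 (543 bp), Phox2a, a factor of visceral and cranial neurons (540 bp), Rgs3 (498 bp), Hapln4 (496 bp), Cep85l and Tmem132d (485 bp each) and Hoxc10 (473 bp). Of these, the domain at Hoxc10 alone was in none of the other lists. It is the domain on the first coding exon described above, where reads of the transgene and of the native gene cannot be told apart.

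The widest domains without an other-list domain within 1 kb gave the same picture in single cases. In iHoxc6 they lay near Def8 (3157 bp), Trappc9, at the imprinted Peg13 (1876 bp), the amino acid transporter Slc7a1 (1333 bp), Irak3 (1090 bp), Cdh6 (1073 bp) and Insig2 (1034 bp), and the no Dox list held all 6. In iHoxc10 they lay near the ephrin receptor Epha5 (892 bp), Cfap58 (890 bp), Cnst (870 bp), Sobp (869 bp), the retinal determination factor Dach1 (862 bp) and Sall3 (835 bp). The progenitor list held none of these 6, the no Dox list held those near Dach1 and Sall3, and iHoxc9 held all but that near Sobp. The iHoxc10 domains held 5 to 8 TTTAT matches each at 35.5 to 46.7% GC, whereas the iHoxc6 domains, though wider, held 0 to 4 at 41.6 to 58.1% GC.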

How the data were processed

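Accessible domains were measured by paired-end ATAC-seq in 6 groups of 2 samples each. Per the methods, the authors mapped reads to mm10 with Bowtie2 and called domains with DomainFinder of SeqCode. The submitters' processing notes name Bowtie2 2.2.2 and Picard 2.8.2. The authors deposited 1 list per group, made from both replicates, whose values are the chromosome, start and end of each domain in bp. No score, count or depth accompanies them, and whether starts count from 0 or 1 is not given in the sources used here, which leaves an uncertainty of 1 bp.

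Lists were compared on chromosomes 1 to 19, X and Y, leaving out the mitochondrial domain and 134 to 184 domains on unplaced sequence per list. Domains 150 bp or wider without 1 bp of overlap in the other list were line-specific. Genes came from GENCODE M21 (21827 protein-coding genes), and location was read at the domain centre when no TSS lay within 1 kb. Words were counted on both strands of the central 150 bp, and GC weighting used 20 bins. Words, Wilson intervals and figures used Python 3.11.15, NumPy 2.4.6, SciPy 1.17.1 and Matplotlib 3.10.9. The code was tested on simulated data with 11 checks, of which 0 differed. No test between groups was made.

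The members, gene lists and words were chosen with earlier results of these data known. Named by rule were the 10 genes per class with the largest difference in line-specific domains, the 8 widest promoter domains of each class, the 6 widest domains with no domain of the other list within 1 kb, and the members of the gene lists. Alternatives were other minimum widths, lists cut to equal length, other overlap and promoter definitions, GC weighting, a wider window and distal domains only. The values of 1 listed gene and 1 example domain of the iHoxc10 class are not reported here.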

Additional observations from a re-analysis of the deposited data

How the results depend on the processing

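No paired analysis was possible because each list was made from both replicates, and for the same reason no replicate could be left out. Values are given as iHoxc6 then iHoxc10. Of 92 recomputed values, 22 stayed within their interval or, for counts, within 1.5 times the value reported, and 70 moved further. Each is a single share or count, which has no direction of its own to turn. In every setting the iHoxc10 class held TTTAT and TAAT more often, and the iHoxc6 class lay more often in promoters and in progenitor domains. With no minimum width there were 48218 and 13090 line-specific domains, with promoter shares of 7.44% and 7.00%, progenitor shares of 27.6% and 20.1%, TTTAT in 37.7% of the iHoxc10 class and TAAT in 54.1% and 57.6%. With a minimum of 300 bp there were 2053 and 652, promoters 10.3% and 3.99%, progenitor 69.8% (iHoxc6), TTTAT 31.9% and 54.4%, and TAAT 68.1% (iHoxc10). With 500 bp there were 290 and 118, promoters 17.9% and 2.54%, progenitor 77.9% and 26.3%, TTTAT 27.2% and 54.2%, TAAT 52.1% and 69.5%. With lists cut to 56232 domains, the iHoxc10 class had a progenitor share of 29.7% and TTTAT in 45.6%, and genes with a promoter domain in 1 list alone were 452 and 289. Cut to 33814, the iHoxc10 class numbered 8441, promoters held 10.6% and 8.399%, progenitors 69.1% and 52.0%, TTTAT was in 31.8% and 37.4%, and TAAT in 55.8% and 56.6%. Counting a domain within 500 bp as common gave promoters 5.73% and 2.59%, progenitor 19.1% (iHoxc10), TTTAT 50.5% (iHoxc10), and TAAT 58.9% and 68.0%. Requiring at least 50% coverage gave 14805 and 7070 domains, promoters 12.3% and 9.94%, progenitor 69.4% and 46.2%, TTTAT 29.4% and 41.4%, and TAAT 53.9% and 59.2%. A promoter of 5 kb to either side held 18.2% and 14.6%, and progenitor domains of 150 bp or more met 37.5% and 11.7%. In distal domains TTTAT was in 31.5% and 49.8% and TAAT in 60.2% and 67.9%. GC weighting gave 44.3% and 62.4% for the iHoxc10 class, and the central 300 bp gave TTTAT in 50.2% and 65.2% and TAAT in 76.1% and 82.7%.

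The 20 named genes were recomputed under the same alternatives, a step added after seeing the data. Of 140 differences, 121 kept their direction, 11 became 0 and 8 turned, all with no minimum width. There, iHoxc6 exceeded iHoxc10 by 26 domains at Auts2, 23 at Cdh8, 2 at Gm10295, 3 at Gramd3, 1 at Lemd2, 5 at Mvb12b, 4 at Sall3 and 2 at Tnrc6c. The cause of these changes was not tested. Depth is unknown, so the absence of a domain from a list may be a limit of detection.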
